A study of Mus musculus with 12 samples.

Results

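The eGFP fraction was compared with the tdTomato fraction of sorted spinal cord glia, 4 libraries against 4 of the 12 in the series, across every gene that passed a filter on low counts (29361 of 53465 genes in the files). The libraries were chosen by their labels, and no measured value entered the choice. The mice were of the C57BL/6 background and all carried 2 reporters, one named Aldh1L1-GFP and the other Olig2-tdTomato. At postnatal day 7 the brachial and thoracic cord was dissociated with papain, and a FACS Aria sorter gave 3 fractions that are labelled by reporter, namely eGFP, tdTomato, or eGFP with tdTomato. The last of them, here eGFP/tdTomato, entered the fit and is not described here. Reporter and sort therefore define both groups, and there is no unsorted or wild-type sample in the comparison. The labels call the libraries biological replicates 1, 2, 3 and 5, and give neither the gates, the kind of transgene nor the number or sex of the animals behind a library. What the p-values weigh is thus the variation among these libraries, part of which may be technical.

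Astrocytes and oligodendrocytes arise from the same neuroepithelium of the cord and then keep separate gene programmes. Astrocytes clear transmitter and potassium, pass metabolites through gap junctions and export lipoproteins, and their transcription depends on Sox9 and the nuclear factor I family. Oligodendrocyte progenitors, which keep dividing after birth, pass through a committed stage and then assemble myelin, a membrane rich in cholesterol and galactolipids, under Olig2, Sox10 and Myrf. In the first postnatal week of the mouse cord all of these stages are present together.

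Reads counted in genes numbered 12564767 to 27898597 in the eGFP libraries and 25460920 to 36505583 in the tdTomato libraries. A single library stood apart. In eGFP library 1, 57.1% of reads fell outside annotated genes, against 21.2 to 39.0% in the other 7, and its TMM factor (the scaling of edgeR that sets libraries on a common level) was 1.44. Its olfactory and vomeronasal receptor genes, which glia are not known to use, summed to 4135 CPM before scaling, against 36.2 to 1268 in the other 7. The fractions also differed in their medians. Reads outside genes made up 29.1 to 57.1% (median 35.2%) in eGFP and 21.2 to 31.5% (median 25.7%) in tdTomato libraries. The receptor sum had medians of 975 CPM in eGFP and 249 CPM in tdTomato. How far this bears on the calls of weak genes was not tested. The sum of 4 Y-linked genes came to between 203 and 239 CPM in the 3 libraries numbered 3 and to between 0 and 0.223 CPM in the 9 others, and Xist was detected in all 12. Levels below are CPM, the counts of a gene set to a common library size with TMM factors, listed in the order of libraries 1, 2, 3 and 5, and means carry the SD over 4 libraries. Changes are log2 fold changes of eGFP over tdTomato, positive where the eGFP fraction was higher. Genes were called at an adjusted p under 0.05.

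The 4 marker genes of these lineages followed the labels in every library. Aldh1l1 and Olig2 give the sorting reporters their names, so the order of both genes is no independent check of the sort. Positions are those of GRCm38 in GENCODE M21. Aldh1l1 (chr6:90486427-90600203, plus strand), the folate enzyme whose name the green reporter carries, was measured at 209, 323, 693 and 399 CPM in the eGFP libraries and 3.83, 2.44, 2.27 and 6.24 CPM in the tdTomato libraries. The 4 eGFP values were all above the 4 tdTomato values, and the change was 6.78 ± 0.46 (SE; edgeR, adjusted p = 1.6e-08). Gja1 (chr10:56377330-56402513, plus strand), which encodes the gap junction protein connexin 43 of astrocytes, stood at 2914, 4598, 4545 and 4462 CPM in the eGFP libraries and 11.3, 6.89, 9.26 and 7.34 CPM in the tdTomato libraries. The lowest eGFP library, library 1, was still far above every tdTomato library, and the change was 8.89 ± 0.29 (SE; edgeR, adjusted p = 3.6e-11). Enpp6 (chr8:46986887-47096762, plus strand), a choline phosphodiesterase of newly formed oligodendrocytes, stood at 5.80, 2.26, 6.62 and 3.62 CPM in the eGFP libraries and 1996, 2130.2, 2635 and 1561 CPM in the tdTomato libraries. Mag (chr7:30899176-30914873, minus strand), the myelin-associated glycoprotein that faces the axon, stood at 4.46, 3.42, 24.2 and 15.2 CPM in the eGFP libraries and 8581, 6735, 11946 and 8325 CPM in the tdTomato libraries. Both were low in every eGFP library and high in every tdTomato library, with changes of -8.83 ± 0.43 (SE; edgeR, adjusted p = 7.9e-10) for Enpp6 and -9.55 ± 0.72 (SE; edgeR, adjusted p = 4.9e-08) for Mag. The change of Mag was -10.18 without eGFP library 3, the eGFP library with the most Mag. Olig2 (chr16:91225457-91228677, plus strand), for which the red reporter is named, was at 1.73, 5.17, 7.38 and 8.75 CPM in the eGFP libraries and 276, 175, 361 and 220.2 CPM in the tdTomato libraries, a change of -5.47 ± 0.47 (SE; edgeR, adjusted p = 2.1e-07) with no overlap.

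**Figure D1:**
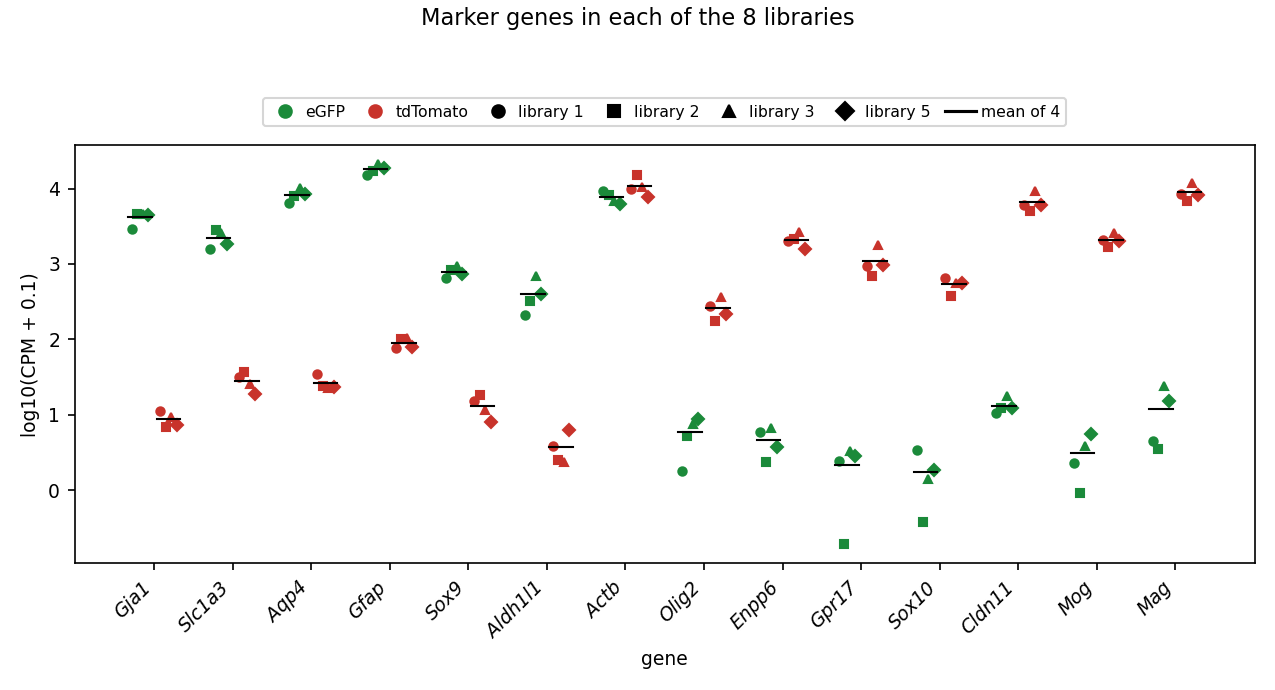
Levels of 14 genes in the 4 eGFP (green) and 4 tdTomato (red) libraries, as log10(CPM + 0.1), with a symbol for each library number and a black line at the log10 of the mean CPM plus 0.1. The 6 astrocyte genes at the left are higher in every green point, the 7 oligodendrocyte-lineage genes at the right are higher in every red point, and Actb lies at a like level in both.

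Across the transcriptome, 10347 genes differed between the fractions, 35.2% of those tested. Of these, 5975 were higher in eGFP cells (20.4%) and 4372 in tdTomato cells (14.9%). A difference of at least 2-fold was found for 5364 genes (18.3%) higher in eGFP and 2789 (9.5%) higher in tdTomato. At least 16-fold differences numbered 1237 (4.21%) and 286 (0.974%). The libraries of the fractions did not overlap at 9948 genes (33.9%).

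The direction of the calls moved with the level of the gene. Among genes whose higher fraction averaged under 1 CPM, 97.5% of calls were higher in eGFP, and between 1 and 10 CPM the share was 82.8%. It was 48.5% between 10 and 100 CPM, 30.1% between 100 and 1000 CPM and 39.7% above 1000 CPM. Long intergenic non-coding RNAs followed the weak genes, with 359 higher in eGFP and 71 higher in tdTomato. Among protein-coding genes of at least 10 CPM in either fraction, 2707 (25.7%) were higher in eGFP and 3633 (34.5%) in tdTomato, of 10533 tested. In this class 60.2% were called, 53.6% had no overlap, and 6.27% and 2.09% were at least 16-fold higher in eGFP and in tdTomato. Among protein-coding genes with a mean of 1 CPM or more over all libraries, 53.7% were called. The share of all calls that was higher in eGFP was 57.7%, and fell to 48.4% without eGFP library 1, to 47.8% without eGFP library 5 and to 46.9% without eGFP/tdTomato library 3, which is in neither group but enters the filter, the scaling and the spread of the fit. It was 68.8% when the test asked for a change beyond 2-fold. A fit of the 8 compared libraries alone gave 4984 genes higher in eGFP and 4607 in tdTomato (52.0% of calls higher in eGFP). The median change of all genes tested was 0.34 in that fit. With the share of reads outside genes as a covariate, 5460 genes were higher in eGFP and 3619 in tdTomato (60.1% of calls higher in eGFP), and the median change of all genes tested was 0.10 in place of 0.79.

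**Figure D2:**
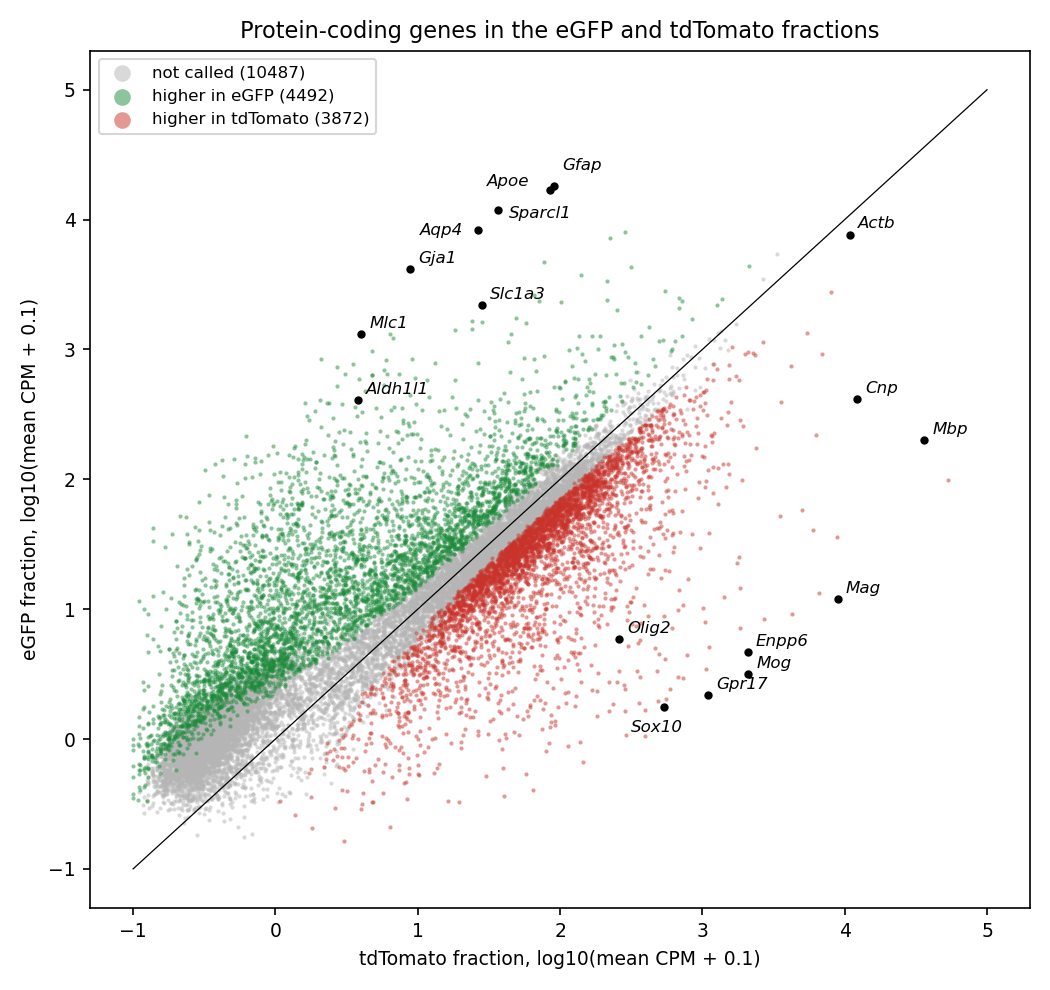
Mean level of each protein-coding gene tested in the tdTomato fraction (horizontal axis) and the eGFP fraction (vertical axis), both as log10(CPM + 0.1), coloured by the edgeR call at an adjusted p under 0.05. The line marks equal levels. The 4492 green genes spread widely at low tdTomato levels, and many of the 3872 red genes lie just below the line at high levels.

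Among the 15 protein-coding genes with the largest change toward eGFP were some known from astrocytes, beside Gja1. Slc39a12, a zinc importer, stood at 637, 1109, 743 and 868 CPM in the eGFP libraries and 2.32, 2.08, 1.19 and 2.36 CPM in the tdTomato libraries. Mlc1, a membrane protein of astrocyte endfeet, stood at 657, 1067, 2179 and 1338 CPM in the eGFP libraries and 5.70, 3.25, 3.83 and 2.80 CPM in the tdTomato libraries. Sparcl1, the secreted protein hevin, stood at 9038, 13756, 13383 and 11131 CPM in the eGFP libraries and 51.6, 32.9, 36.8 and 25.8 CPM in the tdTomato libraries. A call and no overlap between the fractions were conditions of this rank. The changes of these 3 were 8.72 ± 0.32 (SE; edgeR, adjusted p = 8.9e-11), 8.40 ± 0.46 (SE; edgeR, adjusted p = 2.2e-09) and 8.33 ± 0.31 (SE; edgeR, adjusted p = 8.9e-11). Npy, which encodes neuropeptide Y, averaged 139 ± 46.1 against 0.318 ± 0.117 CPM, and Gdf10, a ligand related to the bone morphogenetic proteins, averaged 216 ± 106 against 0.521 ± 0.375 CPM. Those changes were 8.75 ± 0.47 (SE; edgeR, adjusted p = 1.7e-09) and 8.65 ± 0.52 (SE; edgeR, adjusted p = 5.0e-09).

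Others of these 15, which were chosen for that rank, are known from cells that are not typical astrocytes. Wfdc17, a secreted protein known from macrophages, had 4234 reads over the 4 eGFP libraries and 4 over the 4 tdTomato libraries, the latter all in library 5. Its change of 9.99 was 8.44 without eGFP library 5 and 13.08 without tdTomato library 5. Pifo, a gene of ciliated cells, had 3142 and 4 reads, and its change of 9.66 was 12.74 without tdTomato library 5. For both genes the other 3 tdTomato libraries are at 0, so those last values depend on the prior count of the fit. Fam216b, another gene of the ependyma list, averaged 142 ± 52.4 against 0.410 ± 0.359 CPM, a change of 8.40 and of 9.05 without tdTomato library 5. Lum and Prelp encode matrix proteins of connective tissue and averaged 66.2 ± 50.6 against 0.191 ± 0.154 CPM and 118 ± 38.1 against 0.221 ± 0.120 CPM. The remaining members by rank were C1qtnf3 (130.4 against 0.275 CPM), Ccdc3 (29.9 against 0.0671 CPM), Capsl (37.9 against 0.0876 CPM) and Fam183b (51.2 against 0.136 CPM).

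The 15 protein-coding genes with the largest change toward tdTomato, chosen for that rank, included genes of myelin and of the committed stage. Again only called genes with no overlap were ranked. Mog, a glycoprotein of the outer myelin face, stood at 2.17, 0.831, 3.80 and 5.43 CPM in the eGFP libraries and 2092, 1695, 2605 and 2031 CPM in the tdTomato libraries. Cldn11, the claudin that seals myelin layers, stood at 10.5, 12.1, 17.9 and 12.1 CPM in the eGFP libraries and 6058, 5056, 9173 and 6078 CPM in the tdTomato libraries. Both were high in all 4 tdTomato libraries, and both were detected in all 4 eGFP libraries at a low level. The changes were -9.41 ± 0.56 (SE; edgeR, adjusted p = 4.6e-09) and -8.97 ± 0.41 (SE; edgeR, adjusted p = 4.2e-10), and that of Mog was -10.06 without eGFP library 5. Gpr17, a receptor of the committed stage, stood at 2.34, 0.0924, 3.20 and 2.72 CPM in the eGFP libraries and 951, 683, 1785 and 973 CPM in the tdTomato libraries, a change of -9.02 ± 0.80 (SE; edgeR, adjusted p = 3.1e-07).

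A pair of genes of myelin galactolipid synthesis had top ranks as well. Ugt8a, the galactosyltransferase of galactocerebroside, averaged 9.11 ± 5.68 against 4291 ± 763 CPM, and Fa2h, the fatty acid hydroxylase of the same pathway, averaged 3.38 ± 1.70 against 1052 ± 275 CPM. The changes were -8.87 ± 0.55 and -8.27 ± 0.49 (SE), and that of Ugt8a was -9.52 without eGFP library 5. Mal (7.03 against 1841 CPM), Gjb1 (0.971 against 291 CPM), Ermn (1.86 against 491 CPM), Tmem88b (1.92 against 557 CPM) and Ppp1r16b (8.36 against 2688 CPM) were further members. Slc1a1 and Sox10, also of these ranks, are described with their families below.

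Promoter sequences are shown for genes at the top of both ranks, which were chosen for their change. The windows come from RefSeq (GRCm38.p6), 300 bases each, from 250 before to 50 after a start site. Of the 15 genes per direction, 13 of those higher in eGFP and 11 of those higher in tdTomato had a window in the table. The letters searched on both strands were ACAAAG and AACAAT, which Sox factors can bind, and TTGGCA, the half-site of nuclear factor I. Shown are the 2 genes per direction that came first by rank among those with a single window holding one of these letters, and the capitals mark the matches. They are Prelp (chr1:133921352-133921651, minus strand) and C1qtnf3 (chr15:10952082-10952381, plus strand) from the eGFP side, and Enpp6 (chr8:46986637-46986936, plus strand) and Tmem88b (chr4:155785825-155786124, minus strand) from the tdTomato side.
Prelp: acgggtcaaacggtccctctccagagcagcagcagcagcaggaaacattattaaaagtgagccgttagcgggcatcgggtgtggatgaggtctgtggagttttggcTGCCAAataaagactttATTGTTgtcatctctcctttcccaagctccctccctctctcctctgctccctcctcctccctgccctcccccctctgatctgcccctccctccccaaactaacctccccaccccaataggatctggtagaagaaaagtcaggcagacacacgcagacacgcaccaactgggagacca
C1qtnf3: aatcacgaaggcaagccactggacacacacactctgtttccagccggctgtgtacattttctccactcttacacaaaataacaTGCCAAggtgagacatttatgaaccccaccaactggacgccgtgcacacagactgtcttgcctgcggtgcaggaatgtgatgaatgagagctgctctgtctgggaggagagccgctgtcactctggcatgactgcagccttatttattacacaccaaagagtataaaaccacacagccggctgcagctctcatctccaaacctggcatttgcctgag
Enpp6: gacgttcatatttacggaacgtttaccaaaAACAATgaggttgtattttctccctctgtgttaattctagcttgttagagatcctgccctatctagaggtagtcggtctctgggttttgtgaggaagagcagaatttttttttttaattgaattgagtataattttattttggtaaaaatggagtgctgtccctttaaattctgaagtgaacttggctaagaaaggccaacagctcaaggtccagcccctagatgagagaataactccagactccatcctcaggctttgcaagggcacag
Tmem88b: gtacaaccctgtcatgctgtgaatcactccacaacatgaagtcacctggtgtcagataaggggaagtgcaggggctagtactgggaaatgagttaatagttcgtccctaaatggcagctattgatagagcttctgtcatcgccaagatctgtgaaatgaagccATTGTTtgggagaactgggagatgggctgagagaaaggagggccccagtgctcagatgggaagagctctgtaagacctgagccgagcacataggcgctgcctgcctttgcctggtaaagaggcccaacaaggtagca

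Prelp held 1 nuclear factor I half-site and 1 Sox match, C1qtnf3 held 1 half-site, and Enpp6 and Tmem88b each held 1 Sox match. Among the top-ranked genes with a window, the Sox letters occurred in 3 of 13 higher in eGFP and 4 of 11 higher in tdTomato, and the half-site in 3 of 13 and 0 of 11. Some genes have several windows, and of windows the Sox letters were in 3 of 14 and 6 of 17 and the half-site in 3 of 14 and 0 of 17. Over all 32851 windows the shares were 27.03% for the Sox letters and 14.1% for the half-site. Over windows of protein-coding genes of at least 10 CPM they were 18.5% and 11.3%. Genes at least 16-fold higher in eGFP had 23.1% and 15.2% of 633 windows, and genes at least 16-fold higher in tdTomato had 24.9% and 7.3% of 233 windows. The GC box GGGCGG was in 63.7% of the windows of expressed genes, 52.1% of those of the eGFP side and 49.4% of those of the tdTomato side. These are counts of letters, which are not shown to be bound, and windows of 1 gene can overlap.

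The astrocyte marker list was nearly uniform. Of 32 genes tested, 30 were higher in eGFP and 1 was higher in tdTomato, beside 20.4% and 14.9% of all genes tested. The median change was 5.88, against 0.79 over all genes tested. These values of all genes tested stand beside every list below as well. Protein-coding genes of at least 10 CPM in either fraction had a median of -0.25, with 25.7% higher in eGFP and 34.5% in tdTomato. A list can lie near either background and away from the other. In sorted bulk cells, fewer cells of a kind and less RNA per cell cannot be told apart, for this list and for every other. Aqp4, the water channel of endfeet, stood at 6458, 7943, 10293 and 8344 CPM in the eGFP libraries and 34.6, 24.3, 22.9 and 23.7 CPM in the tdTomato libraries, with no overlap and a change of 8.29 ± 0.27 (SE; edgeR, adjusted p = 3.6e-11). Gfap, the intermediate filament, averaged 18042 ± 2537 against 90.9 ± 14.4 CPM, and Apoe, the main apolipoprotein of the brain and cord, 16981 ± 5412 against 84.7 ± 20.97 CPM. The exceptions were S100b and Kcnj10, the latter named after its values were seen. S100b, a calcium-binding protein often used to mark astrocytes, stood at 96.9, 171, 187 and 162 CPM in the eGFP libraries and 333, 254, 343 and 259 CPM in the tdTomato libraries, higher in every tdTomato library with a change of -0.95 ± 0.22 (SE; edgeR, adjusted p = 0.0028). Kcnj10, the potassium channel Kir4.1, stood at 183, 299, 466 and 365 CPM in the eGFP libraries and 328, 230.5, 271 and 282 CPM in the tdTomato libraries, and its 95% interval of -0.34 to 0.82 on the log2 scale includes 0.

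The lists of the oligodendrocyte lineage follow its stages. Progenitor genes gave 14 higher in tdTomato and 3 higher in eGFP of 22 tested, with a median of -1.71. Genes of the committed and newly formed stage gave 24 higher in tdTomato of 26, and the other 2 did not pass, with a median of -4.44. Myelin and mature genes gave 36 of 40, and the other 4 did not pass, with a median of -6.51. The lists differ in size and level and the medians were not tested against each other.

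Progenitor genes lay on both sides. Pdgfra, the growth factor receptor that defines progenitors, stood at 15.5, 22.7, 3.24 and 11.2 CPM in the eGFP libraries and 198, 358, 178 and 98.7 CPM in the tdTomato libraries, and Cspg4, the proteoglycan NG2, averaged 7.00 ± 1.83 against 61.8 ± 15.9 CPM. Both were named after their values were seen. Sema5a, a guidance ligand, averaged 10.6 ± 3.54 against 732 ± 181 CPM, and the matrix protein gene Matn4 averaged 2.30 ± 0.918 against 167 ± 44.2 CPM. Lims2, an adhesion adaptor, averaged 3.26 ± 0.998 against 261 ± 44.1 CPM and shares 6.14% of its exonic bases with Gpr17. Against these, Ednrb, the endothelin receptor B, stood at 1717, 2754, 2625 and 2294 CPM in the eGFP libraries and 82.1, 105, 61.7 and 34.6 CPM in the tdTomato libraries, higher in every eGFP library, with a change of 5.05 ± 0.33 (SE; edgeR, adjusted p = 1.0e-08). The summed level of the progenitor list was 3208 to 5970.5 CPM in eGFP and 2312 to 3878 CPM in tdTomato. Ednrb and Ptprz1, both higher in eGFP, were the most abundant members there; Ptprz1 was named after its values were seen.

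Committed-stage genes included Bmp4 (1.54 ± 0.912 against 222 ± 37.9 CPM), a secreted morphogen, and Bcas1 (5.01 ± 1.32 against 1121 ± 296 CPM), a marker of oligodendrocytes that are starting to myelinate. Nfasc, the adhesion molecule neurofascin, averaged 57.9 ± 24.6 against 5038 ± 1714 CPM, and Slc12a2, the chloride importer NKCC1, 29.8 ± 6.45 against 633 ± 179 CPM. The changes were -7.21, -7.81, -6.44 and -4.41, and that of Bmp4 was -7.83 without eGFP library 1. Among mature genes, Mbp, the myelin basic protein, named after its values were seen, stood at 86.4, 109, 325 and 279.9 CPM in the eGFP libraries and 35996, 27476, 48289 and 32059.7 CPM in the tdTomato libraries. Tppp, a tubulin-binding protein, averaged 12.2 ± 4.04 against 1426 ± 279 CPM, Hapln2, a link protein of nodes, 0.791 ± 0.387 against 113 ± 45.7 CPM, and Trf, the iron carrier transferrin, 2.37 ± 1.11 against 88.5 ± 9.76 CPM. The 4 members of the mature list that did not pass the test were Car2 (459.8 against 353 CPM), Cd9 (847 against 727 CPM), Cryab (110.4 against 151 CPM) and Apod (350.3 against 782 CPM), named after their values were seen. The intervals of their log2 changes ran from -0.11 to 0.88, -0.20 to 0.65, -0.85 to -0.06 and -2.18 to -0.14. Apod was called higher in tdTomato without eGFP library 2, at -2.0 (edgeR, adjusted p = 0.00093).

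**Figure D3:**
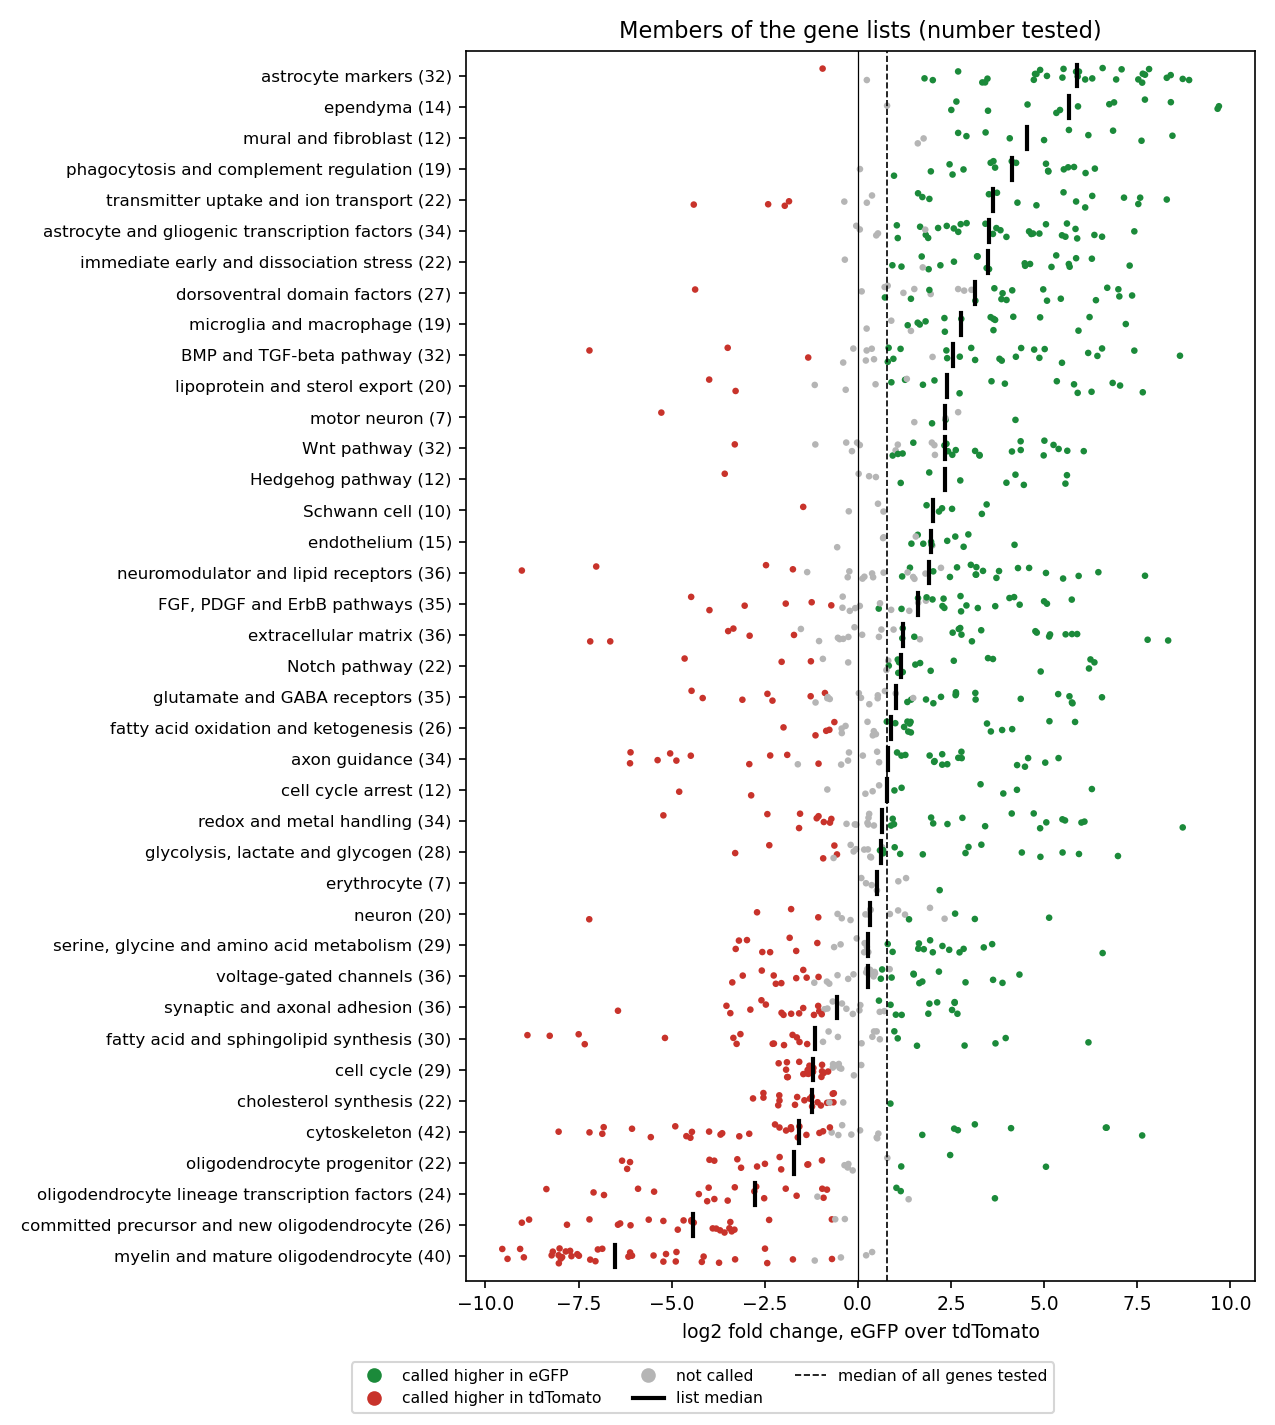
Log2 fold changes of eGFP over tdTomato (horizontal axis) for the tested members of 39 gene lists, one row a list with its number of members, coloured by the edgeR call. Thick bars mark list medians, from 5.88 for astrocyte markers to -6.51 for myelin genes, and the dashed line marks the median of all genes tested, 0.79.

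Transcription factors divided in the same way. Of 24 factors of the oligodendrocyte lineage, 19 were higher in tdTomato and 3 in eGFP. Sox10, needed for oligodendrocyte maturation, stood at 3.29, 0.277, 1.32 and 1.74 CPM in the eGFP libraries and 648, 372, 560.0 and 567 CPM in the tdTomato libraries. Myrf, which switches on myelin genes, stood at 9.08, 1.52, 4.10 and 3.09 CPM in the eGFP libraries and 597, 352, 643 and 396 CPM in the tdTomato libraries. Zfp488, a lineage cofactor, averaged 1.75 ± 1.32 against 235 ± 58.2 CPM. All 4 tdTomato libraries were above all 4 eGFP libraries for each, which for Sox10 was a condition of its rank. The changes of -8.36, -6.82 and -7.10 were -9.06, -7.57 and -7.82 without eGFP library 1. Olig1, the close relative of Olig2 and named after its values were seen, averaged 182 ± 119.7 against 1039 ± 309.6 CPM, a change of -2.52 ± 0.43 (SE). Prrx1, a homeobox factor placed in this list for its part in progenitors, went the other way, at 61.4 ± 9.25 against 4.79 ± 0.886 CPM.

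Astrocyte and gliogenic factors gave 29 higher in eGFP of 34 tested, and the other 5 did not pass, with a median of 3.52. Id4, an inhibitor of bHLH factors, stood at 345, 489, 392 and 315 CPM in the eGFP libraries and 4.10, 1.32, 1.45 and 2.21 CPM in the tdTomato libraries, and its relative Id3 averaged 532 ± 203 against 5.65 ± 1.22 CPM. Hey2, a Notch target, averaged 109 ± 28.1 against 1.33 ± 0.187 CPM. The 4 nuclear factor I genes were all higher in eGFP, by 2.69 for Nfia, 1.89 for Nfib, 1.82 for Nfix and 1.28 for Nfic. Sox2, a factor of neural stem cells and glia named after its values were seen, did not pass the test at 72.9 against 50.2 CPM, with an interval of -0.04 to 1.12.

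Factors that mark positions along the dorsoventral axis of the embryonic cord were higher in eGFP for 17 of 27 genes, with 1 higher in tdTomato. Zic4 stood at 28.4, 79.6, 81.2 and 88.7 CPM in the eGFP libraries and 0.579, 0.241, 0.149 and 0.738 CPM in the tdTomato libraries, Zic1 averaged 25.004 ± 6.87 against 0.181 ± 0.0892 CPM and Msx2 12.05 ± 2.52 against 0.0857 ± 0.0544 CPM. These 3 belong to the dorsal cord, and each was at under 1 CPM in every tdTomato library. The exception, Gsx1, was outside the rule for named genes and averaged 0.229 against 4.65 CPM.

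Of 25 families of paralogues, 13 had called members on both sides, 10 only members higher in eGFP and 2 only members higher in tdTomato. With 60.2% of protein-coding genes of at least 10 CPM called, members on both sides are not particular to these families, which were chosen with earlier results known. In the SoxE group, Sox9 was higher in eGFP with a change of 5.89 ± 0.28, and Sox8 was higher in tdTomato with a change of -2.73 ± 0.41 (SE), on the side of Sox10. Of the connexins given here, Gja1 and Gjb6 (73.005 ± 25.9 against 0.335 ± 0.239 CPM) were higher in eGFP, and Gjb1 (0.971 ± 0.639 against 291 ± 67.1 CPM) and Gjc3 (2.89 ± 1.87 against 675 ± 160.2 CPM) in tdTomato. The first pair encodes the connexins of astrocytes and the other two connexins of oligodendrocytes. The membrane glycoproteins Gpm6a and Gpm6b were both higher in eGFP, by 3.00 and 1.72. Of the claudins, Cldn10 averaged 239 ± 98.6 against 2.95 ± 0.628 CPM, opposite to Cldn11, and Cldn12 did not pass at 32.9 against 21.5 CPM.

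Glutamate transporters showed the same contrast. Slc1a3, known as GLAST, stood at 1569, 2863, 2539.5 and 1850.5 CPM in the eGFP libraries and 31.7, 36.5, 25.5 and 18.9 CPM in the tdTomato libraries, and Slc1a2, known as GLT-1, averaged 1627 ± 387 against 28.05 ± 8.40 CPM. Slc1a1, known as EAAC1, stood at 0.502, 0.462, 1.24 and 1.58 CPM in the eGFP libraries and 351, 413, 520.2 and 306 CPM in the tdTomato libraries. Its order is the reverse in every library. The changes were 6.29 ± 0.30 (SE; edgeR, adjusted p = 6.8e-10), 5.86 ± 0.29 (SE; edgeR, adjusted p = 7.8e-10) and -8.66 ± 0.45 (SE; edgeR, adjusted p = 1.2e-09) in that order. Unnamed gene models cover 31.9% of the exonic bases of Slc1a1, and reads shared with them cannot be assigned here because the strand mode of the counting is not given in the sources used here. Slc1a4, a neutral amino acid carrier of the same family, was higher in eGFP by 3.22 ± 0.33 (SE).

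Among AMPA receptor subunits, Gria1 was higher in eGFP (363 ± 124 against 6.66 ± 3.03 CPM), while Gria2 (32.1 ± 1.75 against 276 ± 45.7 CPM), Gria3 (12.5 ± 6.94 against 61.3 ± 22.2 CPM) and Gria4 (80.4 ± 14.4 against 148 ± 38.6 CPM) were higher in tdTomato. Gria2 encodes the subunit that limits calcium entry. The changes ran from 5.76 to -3.10, and that of Gria3, -2.29, was -2.88 without eGFP library 1. For the FGF receptors, Fgfr3 and Fgfr1 were higher in eGFP by 5.08 and 2.75, and Fgfr2 was higher in tdTomato, at -0.71. The change of Fgfr3 was 4.43 without eGFP library 3. The ErbB receptors split into Egfr (4.07) and Erbb2 (4.19) on the eGFP side and Erbb3 (-4.48) and Erbb4 (-1.24) on the tdTomato side. The value of Erbb3 was -5.50 without eGFP library 1.

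**Figure D4:**
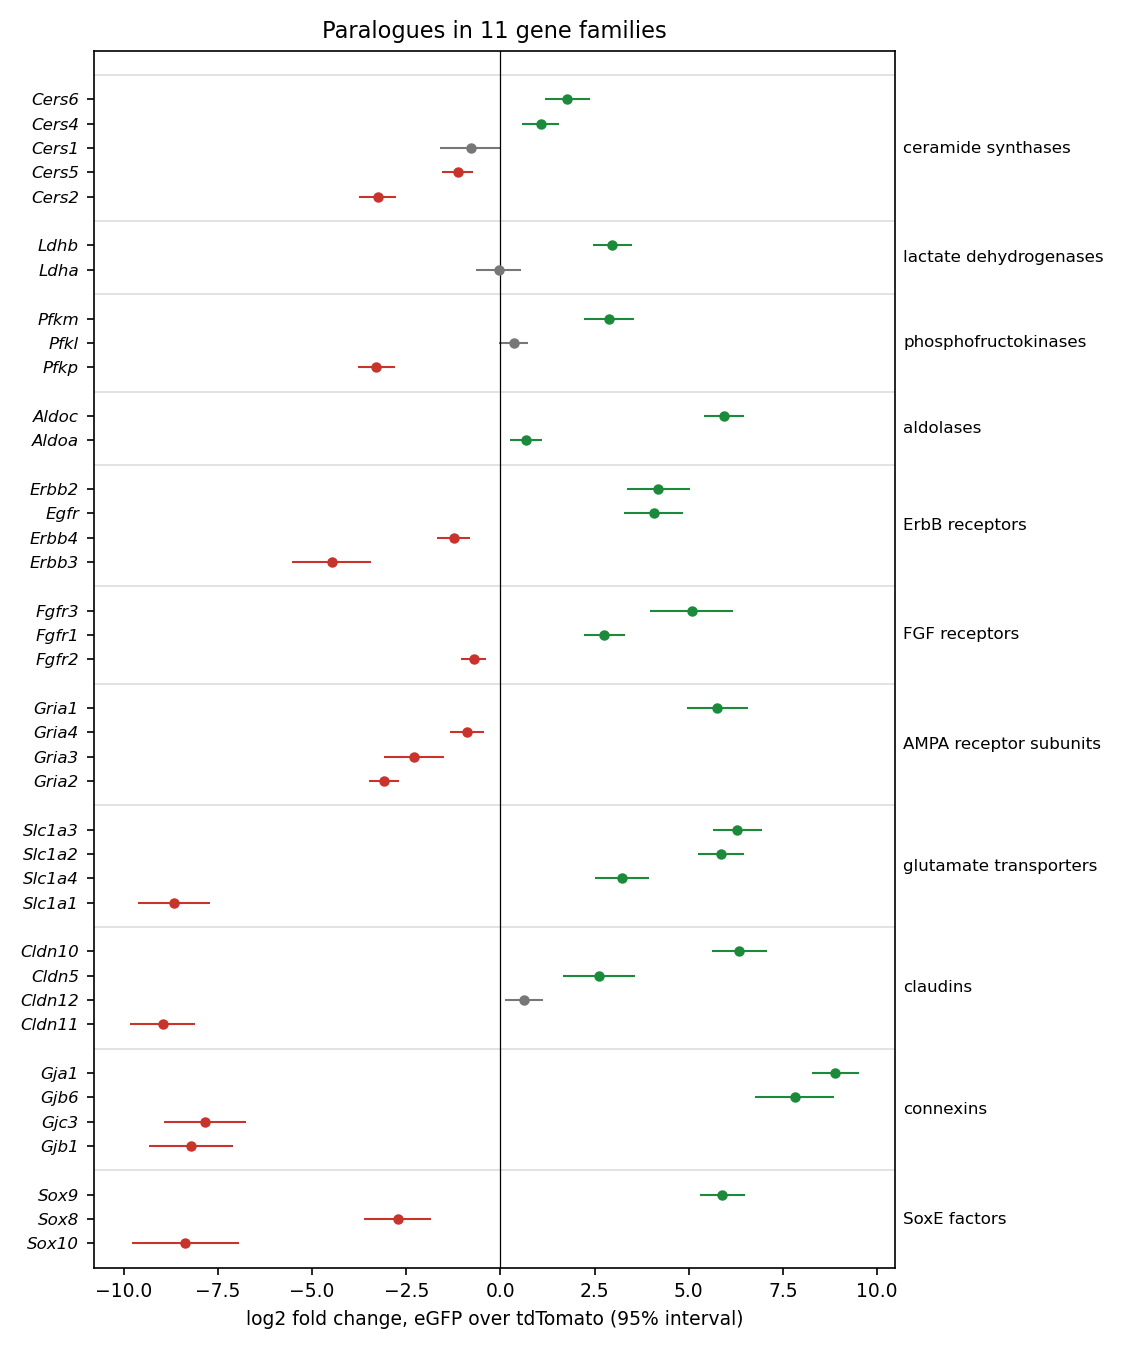
Log2 fold change of eGFP over tdTomato (horizontal axis, point) with its 95% interval (bar) for the members of 11 families that are given here, coloured green where called higher in eGFP, red where called higher in tdTomato and grey where not called. In the SoxE, connexin, claudin, glutamate transporter, AMPA receptor, FGF receptor, ErbB, phosphofructokinase and ceramide synthase families, members lie on both sides of 0 beyond their intervals.

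Metabolic enzymes also came in different paralogues. Aldoc, the brain aldolase, stood at 4417, 5934, 4839 and 3687 CPM in the eGFP libraries and 86.3, 81.3, 81.9 and 59.03 CPM in the tdTomato libraries, while Aldoa differed by 0.68. That small change lost its call without tdTomato library 1 (to 0.66; edgeR, adjusted p = 0.063) or tdTomato library 2 (to 0.63, adjusted p = 0.066). The same held without eGFP library 3 (to 0.51; edgeR, adjusted p = 0.067), eGFP library 5 (to 0.45, adjusted p = 0.21) or eGFP/tdTomato library 3 (to 0.44, adjusted p = 0.16). Ldhb was higher in eGFP by 2.97 ± 0.25 (SE), and Ldha was at 366 against 379 CPM, with an interval of -0.65 to 0.56. Of the phosphofructokinases, Pfkm was higher in eGFP (176 ± 77.7 against 23.7 ± 5.97 CPM) and Pfkp in tdTomato (24.4 ± 6.28 against 240.0 ± 40.98 CPM), and Pfkl, at 149 against 117 CPM, did not pass. Over the glycolysis, lactate and glycogen list, 14 of 28 genes were higher in eGFP and 5 in tdTomato, with a median of 0.62. That lay near the 0.79 of all genes tested and above the -0.25 of protein-coding genes of at least 10 CPM. The first count was 9 without eGFP library 5, and the second was 3, 3 and 2 without tdTomato libraries 1, 2 and 3. Ppp1r3c, a glycogen-targeting phosphatase subunit, averaged 252 ± 87.98 against 2.00 ± 0.310 CPM, and Pygm, a glycogen phosphorylase, 50.03 ± 21.9 against 1.11 ± 0.296 CPM, both with no overlap.

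Lipid genes separated by pathway. Cholesterol synthesis was higher in tdTomato for 19 of 22 genes, with a median of -1.23. Lss, the cyclase that makes lanosterol, averaged 127 ± 40.8 against 739 ± 153 CPM, and Ebp, a sterol isomerase, 30.7 ± 3.68 against 178 ± 27.7 CPM. The single member called higher in eGFP, Tm7sf2, at 0.87, lost its call without any one of 6 libraries. Its adjusted p in edgeR was then 0.073, 0.088 and 0.063 without tdTomato libraries 1, 2 and 5, with values of 0.86, 0.78 and 0.79. It was 0.098 and 0.14 without eGFP libraries 3 and 5 (values 0.57 and 0.69), and 0.089 without eGFP/tdTomato library 3 (value 0.65).

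Lipoprotein and sterol export ran the other way, with 14 of 20 higher in eGFP and 2 in tdTomato (4 without eGFP/tdTomato library 3). Abca1, which loads lipid onto apolipoproteins, stood at 179.7, 279, 495 and 261 CPM in the eGFP libraries and 5.97, 4.39, 5.21 and 6.20 CPM in the tdTomato libraries, the eGFP libraries all above the tdTomato libraries. Pltp, a phospholipid transfer protein, averaged 113 ± 54.03 against 0.972 ± 0.217 CPM, and Apoc1 24.3 ± 8.19 against 0.175 ± 0.125 CPM. Cyp27a1, a sterol hydroxylase, had the largest change towards tdTomato, at 3.17 ± 1.87 against 50.2 ± 14.4 CPM.

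Fatty acid and sphingolipid synthesis was mixed, 7 higher in eGFP and 15 in tdTomato of 30. Elovl2, an elongase of polyunsaturated chains, averaged 135 ± 45.5 against 1.82 ± 0.862 CPM, and Elovl7, an elongase of saturated chains, 4.31 ± 0.526 against 781 ± 153 CPM, a change of -7.50 ± 0.25 (SE). Scd1, a desaturase, was higher in eGFP by 3.97, while Scd2 stood at 3517 against 2687 CPM and did not pass. Of the ceramide synthases, Cers2, which makes very long chain ceramides, was higher in tdTomato (123 ± 32.3 against 1179 ± 228 CPM) and Cers6 in eGFP (25.3 ± 7.48 against 7.36 ± 2.72 CPM). Fatty acid oxidation gave 14 higher in eGFP and 5 in tdTomato of 26. That list had a median of 0.89, near the 0.79 of all genes tested and above the -0.25 of protein-coding genes of at least 10 CPM. Its summed level overlapped, at 1902 to 3431 CPM in eGFP and 2123 to 3073 CPM in tdTomato. The largest changes toward eGFP were those of Acsf2 (16.3 against 0.281 CPM), Acot11 (36.8 against 1.02 CPM) and Acaa2 (116 against 6.59 CPM). Acsl3, an acyl-CoA synthetase, had the largest change in the other direction, at 158 ± 37.6 against 629 ± 108 CPM. Another gene, Fam151a, overlaps 20.9% of the exonic bases of Acot11.

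In amino acid metabolism 14 of 29 genes were higher in eGFP and 8 in tdTomato, beside 20.4% and 14.9% of all genes tested. The median of 0.28 was below the 0.79 of all genes tested and above the -0.25 of protein-coding genes of at least 10 CPM. Cbs, the first enzyme from homocysteine towards cysteine, stood at 63.3, 156, 234 and 109 CPM in the eGFP libraries and 0.356, 1.93, 1.56 and 1.96 CPM in the tdTomato libraries, and the next enzyme, Cth, averaged 7.24 ± 1.71 against 0.692 ± 0.130 CPM. Gamt, which completes creatine synthesis, stood at 12.5, 14.5, 23.9 and 19.8 CPM in the eGFP libraries and 190.4, 133, 205 and 160.0 CPM in the tdTomato libraries, lower in every eGFP library. Redox and metal genes gave 17 and 9 of 34, with a median of 0.66, also between those backgrounds. Gsta4 and Gstm1, glutathione transferases, averaged 121 ± 23.2 against 1.78 ± 0.605 CPM and 603 ± 188 against 9.42 ± 2.42 CPM. Gstm1 has close copies in the genome, so its reads may be shared among them. The metallothioneins Mt1 and Mt3 were higher in eGFP, at 366 ± 65.7 against 34.3 ± 3.70 CPM and 257 ± 123 against 8.63 ± 1.33 CPM.

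Ion and transmitter handling favoured the eGFP fraction, with 15 of 22 genes higher there and 4 higher in tdTomato. Slc4a4, a sodium bicarbonate carrier, averaged 1217 ± 318 against 6.59 ± 1.04 CPM, and Fxyd1, a regulator of ion transport, 154 ± 36.96 against 0.784 ± 0.348 CPM. Atp1b2, a beta subunit of the sodium pump, was higher in eGFP by 6.10. Of 36 voltage-gated channel genes, 12 were higher in eGFP and 10 in tdTomato. Over all genes tested these shares were 20.4% and 14.9%, and over protein-coding genes of at least 10 CPM 25.7% and 34.5%. The counts were 8 and 12 without eGFP library 1, and the first was 7 with the 8 libraries alone. Cacnb2, a calcium channel subunit, averaged 40.2 ± 6.63 against 3.25 ± 0.744 CPM. Kcna1, a potassium channel, stood at 4.29, 0.0924, 0.263 and 0.792 CPM in the eGFP libraries and 12.3, 8.24, 20.6 and 13.8 CPM in the tdTomato libraries, and its change of -3.37 was -5.28 without eGFP library 1.

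Receptors of glutamate and GABA were higher in eGFP for 16 and in tdTomato for 7 of 35, with a median of 1.02. That lay near the 0.79 of all genes tested and above the -0.25 of protein-coding genes of at least 10 CPM. Gabra2 stood at 758, 788, 968 and 855 CPM in the eGFP libraries and 9.04, 14.9, 5.09 and 6.75 CPM in the tdTomato libraries, and Gabra4 averaged 228 ± 51.3 against 4.24 ± 1.46 CPM. Grik3, a kainate receptor subunit, averaged 3.27 ± 1.86 against 72.01 ± 31.7 CPM, the reverse. Receptors of neuromodulators and lipids gave 19 and 4 of 36. Ntsr2, a neurotensin receptor, stood at 807, 1406, 1689 and 1383 CPM in the eGFP libraries and 8.02, 6.92, 5.54 and 4.80 CPM in the tdTomato libraries, and Adra2a, an adrenergic receptor, averaged 22.6 ± 4.27 against 0.361 ± 0.217 CPM. The receptors of sphingosine 1-phosphate split, S1pr1 at 643 ± 235 against 7.31 ± 1.69 CPM and S1pr5 at 1.39 ± 0.667 against 181 ± 62.1 CPM, and Lpar1, a receptor of lysophosphatidic acid, was higher in tdTomato, at -2.47. S1pr5 and Lpar1 were named after their values were seen.

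Signalling lists had more members called higher in eGFP than in tdTomato. Over all genes tested these shares were 20.4% and 14.9%. Of the calls among genes between 1 and 10 CPM, 82.8% were higher in eGFP, and how far this carries the lists was not tested. In the Notch pathway 15 of 22 genes were higher in eGFP and 3 in tdTomato. The first count was 11 at the lowest without 1 library, and 9 without the 3 libraries numbered 3. The receptor Notch3 stood at 36.1, 43.6, 125 and 47.8 CPM in the eGFP libraries and 0.757, 0.632, 0.335 and 1.70 CPM in the tdTomato libraries. The ligand Dll3 stood at 1.56, 0.831, 0.979 and 0.830 CPM in the eGFP libraries and 25.4, 29.2, 34.4 and 15.9 CPM in the tdTomato libraries. Their order is opposite in every library. In the Hedgehog pathway, 8 of 12 were higher in eGFP, and these included the effectors Gli2 (18.4 ± 11.8 against 0.373 ± 0.361 CPM) and Gli3 (65.9 ± 12.05 against 1.31 ± 1.37 CPM) and the co-receptor Boc (51.7 ± 21.9 against 2.34 ± 0.728 CPM). Hhip, a secreted-ligand antagonist held at the membrane, was the exception, at 16.5, 30.2, 25.03 and 20.7 CPM in the eGFP libraries and 306, 259, 317 and 221 CPM in the tdTomato libraries, a change of -3.57 ± 0.22 (SE; edgeR, adjusted p = 7.5e-09). The summed level of the Hedgehog list overlapped between fractions, at 345 to 630 CPM in eGFP and 336 to 484 CPM in tdTomato.

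Wnt genes were higher in eGFP for 21 of 32, with 1 higher in tdTomato (2 without eGFP library 1, eGFP library 3 or eGFP/tdTomato library 3). Over all genes tested the shares were 20.4% and 14.9%. The summed level of the Wnt list overlapped, at 1249 to 1709 CPM in eGFP and 1094 to 1649 CPM in tdTomato. Fzd10, a receptor, averaged 11.96 ± 6.14 against 0.177 ± 0.107 CPM, and Wnt5a, a ligand, 54.3 ± 17.97 against 1.09 ± 0.522 CPM. Tcf7l2, a DNA-binding effector that oligodendrocytes also use as a differentiation factor, stood at 127, 93.6, 87.95 and 73.8 CPM in the eGFP libraries and 1101, 1078, 874 and 728 CPM in the tdTomato libraries. In the BMP and TGF-beta pathway the counts were 22 and 3 of 32. The Id genes, targets of BMP signals, were higher in eGFP, and the ligand Bmp4 was higher in tdTomato.

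The FGF, PDGF and ErbB list gave 19 higher in eGFP and 6 in tdTomato of 35, beside 20.4% and 14.9% of all genes tested. Igfbp2, a binding protein of insulin-like growth factors, stood at 147, 456, 488 and 287 CPM in the eGFP libraries and 6.41, 8.82, 6.06 and 4.39 CPM in the tdTomato libraries. Axon guidance genes gave 17 and 10 of 34. They had a median of 0.81, near the 0.79 of all genes tested and above the -0.25 of protein-coding genes of at least 10 CPM. Their summed level was 1968 to 4270 CPM in eGFP and 5127 to 8017 CPM in tdTomato. Robo2, a Slit receptor, averaged 232 ± 50.8 against 7.11 ± 0.696 CPM and Sema3a, a repellent ligand, 69.1 ± 6.88 against 2.90 ± 1.17 CPM. Adhesion genes gave 11 and 15 of 36, beside 25.7% and 34.5% of protein-coding genes of at least 10 CPM. The first count was 6 without the 3 libraries numbered 3. Ntm, which encodes neurotrimin, averaged 327 ± 44.95 against 51.3 ± 20.2 CPM, and Ncam2 19.2 ± 4.81 against 222 ± 38.8 CPM. Jam3, a junctional adhesion molecule, averaged 14.3 ± 4.92 against 154 ± 40.5 CPM, and an unnamed gene model covers 36.2% of its exonic bases.

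Extracellular matrix genes were higher in eGFP for 18 and in tdTomato for 6 of 36. Tnc, tenascin C, stood at 499.8, 606, 932 and 548 CPM in the eGFP libraries and 4.45, 1.44, 2.31 and 3.65 CPM in the tdTomato libraries, and Thbs2, a thrombospondin, averaged 71.5 ± 21.6 against 1.21 ± 0.268 CPM. The cytoskeleton list ran to tdTomato, 26 of 42 against 8. Tubb4a, a tubulin of oligodendrocytes and neurons, stood at 19.8, 24.1, 76.1 and 42.8 CPM in the eGFP libraries and 6139, 4157, 8504 and 5271 CPM in the tdTomato libraries, and its relative Tubb6 was higher in eGFP by 4.11. Of the proteins that link actin to membranes, Ezr (ezrin) was higher in eGFP by 6.66 ± 0.43 and Msn (moesin) by 2.68 ± 0.27 (SE), while Rdx (radixin) did not pass at 236 against 316 CPM.

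Cell cycle genes were higher in tdTomato for 21 of 29, and the other 8 did not pass, with a median of -1.20. Top2a, the topoisomerase of dividing cells, stood at 18.9, 23.1, 10.3 and 16.9 CPM in the eGFP libraries and 72.5, 99.8, 52.7 and 38.1 CPM in the tdTomato libraries, with no overlap. Ccnb1, the mitotic cyclin, averaged 12.01 ± 4.08 against 44.9 ± 19.7 CPM, and Ube2c, which marks mitotic proteins for destruction, 4.64 ± 1.36 against 20.3 ± 3.43 CPM. The changes were -1.93, -1.91 and -2.13. Genes of cell cycle arrest gave 6 higher in eGFP and 2 in tdTomato of 12. The inhibitor Cdkn1a averaged 39.2 ± 9.25 against 2.03 ± 0.314 CPM, and the inhibitor Cdkn1c 3.44 ± 2.55 against 94.9 ± 39.1 CPM, in opposite directions.

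Immediate early genes, which tissue dissociation is known to raise, were higher in eGFP for 20 of 22, and the other 2 did not pass, with a median of 3.49. Fos stood at 1839, 3184, 3373 and 2084 CPM in the eGFP libraries and 82.9, 92.97, 61.3 and 24.4 CPM in the tdTomato libraries. Its partner Jun averaged 880.5 ± 325 against 236 ± 33.5 CPM, and both were named after their values were seen. Btg2 averaged 1419 ± 435 against 18.2 ± 7.52 CPM, Atf3 112 ± 27.1 against 1.95 ± 0.845 CPM and the small heat shock gene Hspb1 109 ± 36.4 against 0.677 ± 0.347 CPM. None of the 5 overlapped between fractions. Both fractions went through the same dissociation and sort as far as the labels say, and what part of the response arose during it was not tested.

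Markers of other cell types were found in both fractions. Of 19 microglia and macrophage genes 16 were higher in eGFP and the other 3 did not pass, and their summed level was 179.7 to 1353 CPM in eGFP and 41.4 to 74.3 CPM in tdTomato. Lyz2, a macrophage lysozyme with a close copy in Lyz1, stood at 25.2, 117, 57.2 and 526 CPM in the eGFP libraries and 2.23, 0.602, 1.19 and 1.03 CPM in the tdTomato libraries, a change of 7.19 that was 5.55 without eGFP library 5. Mrc1, the mannose receptor of border macrophages, stood at 12.04, 28.4, 16.1 and 118 CPM in the eGFP libraries and 0.802, 0.150, 0.669 and 1.29 CPM in the tdTomato libraries, a change of 5.92 that was 4.50 without the same library. P2ry12, a receptor of resident microglia named after its values were seen, was at 11.3, 17.7, 15.4 and 26.8 CPM in the eGFP libraries and 3.61, 6.32, 10.7 and 7.45 CPM in the tdTomato libraries, low in both fractions.

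Mural and fibroblast genes summed to 798 to 2127 CPM in eGFP and 10.2 to 20.97 CPM in tdTomato, with 10 of 12 called higher in eGFP. Col1a2, a fibrillar collagen, averaged 476 ± 114 against 4.14 ± 1.60 CPM. Dcn, the proteoglycan decorin, stood at 216, 673, 67.3 and 277 CPM in the eGFP libraries and 1.25, 1.75, 0.558 and 2.69 CPM in the tdTomato libraries, a change of 7.61 that was 6.88 without eGFP library 2. Ependymal genes summed to 301 to 541 CPM in eGFP and 4.69 to 19.04 CPM in tdTomato (13 of 14 higher in eGFP), and Foxj1, the factor of motile cilia, named after its values were seen, averaged 28.4 ± 18.3 against 0.710 ± 0.399 CPM. Endothelial genes summed to 194 to 282 CPM in eGFP and 90.98 to 136 CPM in tdTomato, with 10 of 15 higher in eGFP, a count of 6 without tdTomato library 1 or without eGFP library 5. The part of these cells in the phagocytosis, matrix and immediate early lists was not tested.

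Of 20 neuronal genes, 4 were higher in eGFP and 4 in tdTomato, near the 20.4% and 14.9% of all genes tested, and the first count was 7 with a replicate block. Their summed level was 253 to 273 CPM in eGFP and 577 to 866 CPM in tdTomato. Elavl3, an RNA-binding protein known from neurons, made up most of the second sum, at 4.90, 2.45, 3.54 and 2.11 CPM in the eGFP libraries and 589, 421, 525 and 382 CPM in the tdTomato libraries, a change of -7.21 ± 0.32 (SE; edgeR, adjusted p = 3.4e-10). Of 7 motor neuron genes 3 were higher in eGFP and 1 in tdTomato. The latter was Slc5a7, the choline transporter, at 2.84, 1.11, 0.565 and 1.62 CPM in the eGFP libraries and 47.6, 58.97, 79.4 and 47.9 CPM in the tdTomato libraries, and its change of -5.28 was -5.89 without eGFP library 1. Gad2, the GABA-making enzyme of neurons, was higher in eGFP, at 16.1 ± 4.01 against 0.448 ± 0.405 CPM. Schwann cell genes gave 6 higher in eGFP and 1 in tdTomato of 10, and 1 of 7 red cell genes was higher in eGFP. That last count was 0 without eGFP library 1 or 5, tdTomato library 2 or eGFP/tdTomato library 3, and 4 without tdTomato library 1.

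**Figure D5:**
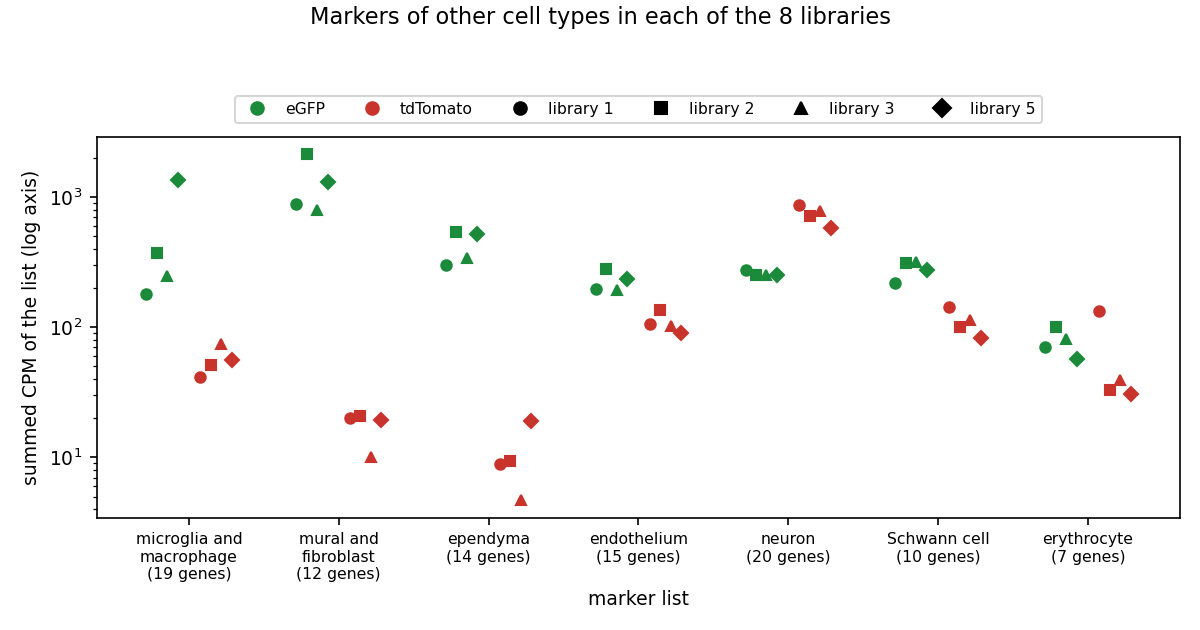
Summed CPM (log axis) of 7 lists of markers of other cell types in the 4 eGFP (green) and 4 tdTomato (red) libraries, with a symbol for each library number. Microglia and macrophage genes reach 1353 CPM in eGFP library 5, and neuronal genes are higher in all red points.

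Phagocytosis and complement genes, which astrocytes and macrophages share, were higher in eGFP for 18 of 19, and the last did not pass. C4b, a complement component with a near-identical copy in C4a, averaged 68.1 ± 30.5 against 0.834 ± 0.668 CPM, and Itgb5, an integrin of phagocytic uptake, 47.9 ± 16.1 against 0.691 ± 0.223 CPM. C1qa, which microglia and macrophages make and which was named after its values were seen, stood at 5.57, 15.1, 12.3 and 78.3 CPM in the eGFP libraries and 1.29, 0.782, 3.98 and 2.62 CPM in the tdTomato libraries, highest in eGFP library 5, and its change of 3.68 was 2.17 without that library.

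Of 2788 genes with at least 100 CPM in either fraction, 1107 had that level in both, which leaves out the genes that are low in 1 of them. Of the 1107, 562 were called and 532 (48.1%) had a 95% interval of the log2 change wholly within 1 of 0, so that a difference above 2-fold lies outside the interval. Of those 532, 52 were called. The count of 532 was 347 without eGFP library 5. Actb, the cytoskeletal actin, stood at 9239.6, 8211, 6859 and 6279 CPM in the eGFP libraries and 9984, 15015, 10594 and 7683 CPM in the tdTomato libraries. Canx, a chaperone of the endoplasmic reticulum, averaged 1583 ± 190.5 against 1711 ± 426 CPM, and Ptn, the growth factor pleiotrophin, 1349 ± 377 against 1289.7 ± 157 CPM. The fractions overlap at all 3 genes. Further genes of the set were Fez1 (1179 against 1435 CPM), Ubb (1179 against 1209.6 CPM), Ywhae (1017 against 1327 CPM), Pea15a (1204 against 1121 CPM), Phyhipl (1061 against 889 CPM), Lamp1 (863 against 939.9 CPM), Ncam1 (870.4 against 832 CPM) and Rtn3 (899 against 780.2 CPM).

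Per exonic kilobase, which allows levels of different genes to be set side by side, the leading named protein-coding genes of the eGFP fraction were Apoe at 7942, Cst3 at 5659, Gfap at 4277 and Sparcl1 at 4027 CPM per kilobase. Among those of the tdTomato fraction were Mbp at 4246, Actb at 4038, Cldn11 at 3525 and Cnp at 3356 CPM per kilobase. In the other fraction the same quantity was 39.6 for Apoe, 177 for Cst3 and 21.6 for Gfap in tdTomato, and 23.6 for Mbp in eGFP. Cst3, the secreted inhibitor cystatin C, and Cnp, a phosphodiesterase of myelin, were named for this rank after their values were seen.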

How the data were processed

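RNA of 12 libraries of sorted spinal cord glia was sequenced on a BGISEQ-500, per the labels' protocols, and the 4 eGFP and 4 tdTomato libraries were compared. The authors used STAR and HTSeq with GRCm38 (mm10), per the submitters' processing notes, and deposited raw counts per Ensembl gene, 1 file a library. Versions, the annotation release and the strand mode are not given in the sources used here. Each file held 53465 genes and 5 lines that name no gene, which were left out of totals and tests. Genes held 28.5 to 64.0% of the reads of a library, and these lines the rest. GENCODE M21 gave symbols and positions for 53360 identifiers (99.8%). Mitochondrial genes were at 0 in all libraries.

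Counts were fitted with edgeR 4.0.16 in R 4.3.3 by its robust quasi-likelihood F-test, after filterByExpr and TMM scaling, with all 12 libraries and the fraction as the only term. Adjusted p-values are Benjamini-Hochberg values over the 29361 genes tested. The SE is the log2 change over the root of F. The test was tried on simulated counts of these libraries. It recovered 10 of 67 genes that were shifted 2-fold (14.9%), 48 of 67 at 4-fold (71.6%) and 57 of 66 at 8-fold (86.4%). False calls made up 4.96% of all its calls. Only these genes were shifted among the 29361 fitted, far fewer than the 10347 genes called in the data. The adjustment of p-values depends on how many genes change. The recovered shares therefore do not give the sensitivity of the comparison itself.

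The members, the 39 gene lists, the 25 families and the tests were chosen with earlier results of these data known. The named genes are the 4 markers and Olig2, the 15 per direction with the largest change (protein-coding, called, at least 10 CPM, no overlap), up to 4 called members a list of at least 5 CPM, all members of the families, and the 12 most abundant shared genes. Others are said to have been named after their values were seen. Alternatives covered scaling, filters, DESeq2 1.42.0, limma-voom (limma 3.58.1), a test against 2-fold, the 8 libraries alone, a replicate block, a covariate and leaving out libraries. Of 257 genes checked, 99 overlap another tested gene, 6 of them over more than 20% of their exonic bases. Results of some genes are not reported here.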

Additional observations from a re-analysis of the deposited data

Results flagged for a closer look

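Each value here is the highest or lowest of the 4 libraries of a fraction and lay apart from the other 3 by more than Dixon's critical value for 4 samples. Chance alone gives about 1 in 20 groups, and 7.69% of 78 list groups and 7.03% of 498 gene groups were found, so most single cases carry little weight. None of 8 groups of library measures was found.

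Among lists, microglia and macrophage genes summed to 1353 CPM in eGFP library 5, next to 373 CPM in the nearest eGFP library. In the same library C1qa reached 78.3 CPM and Mrc1 118 CPM, the highest of the fraction. Progenitor genes summed to 2312 CPM in tdTomato library 5, the lowest, next to 3697 CPM. Receptors of neuromodulators and lipids summed to 3931 CPM in tdTomato library 3, the highest. Neuronal genes summed to 273 CPM in eGFP library 1, next to 254 CPM. Mural and fibroblast genes summed to 10.2 CPM in tdTomato library 3, the lowest, next to 19.5 CPM, and red cell genes to 133 CPM in tdTomato library 1, the highest, next to 39.4 CPM.

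In tdTomato library 3, 8 genes were highest of the fraction: Ugt8a (5430.3 CPM), Tmem88b (796 CPM), Fgfr3 (8.89 CPM), Lamp1 (1254 CPM), Tubb2a (206 CPM), Cers2 (1521 CPM), Id1 (2.31 CPM) and Cnp (16558 CPM). In tdTomato library 5, Wfdc17 and Pifo (0.148 CPM each), Acsf2 (0.775 CPM), Pdgfrb (1.37 CPM) and an unnamed gene model (0.0369 CPM) were highest, and Prrx1 (3.47 CPM), Acsl3 (468 CPM) and Erbb4 (113 CPM) lowest. In tdTomato library 2, Pltp (1.29 CPM), Elovl2 (3.10 CPM) and Boc (3.43 CPM) were highest and Hey2 (1.05 CPM) lowest. In tdTomato library 1, Aqp4 (34.6 CPM), Atf3 (3.21 CPM) and Fgfr1 (23.3 CPM) were highest.

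In eGFP library 1, Gja1 (2914 CPM), Zic4 (28.4 CPM), Enpp5 (91.5 CPM) and Sox2ot (68.2 CPM) were lowest, and Lims2 (4.74 CPM) and Kcna1 (4.29 CPM) highest. In eGFP library 3, Notch3 (125 CPM) and Nfic (140.2 CPM) were highest and Ccnb1 (5.91 CPM) lowest. In eGFP library 5, Aass (4.94 CPM) was lowest.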

How the results depend on the processing

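The alternatives numbered 30, 3 of them chosen after seeing the data. A test against a 2-fold difference called 3379 genes higher in eGFP and 1529 lower. Leaving out 1 library gave 4359 to 7632 higher and 3514 to 5625 lower, of which 4064 to 7169 and 2468 to 3887 at least 2-fold, and 347 to 534 shared genes; leaving out a whole set gave 265 (set 3) to 586 (set 1) shared genes. The share of calls higher in eGFP, 57.7%, also fell below even at 49.4% with at least 1 CPM in 4 libraries and 48.1% without set 3. The median change of all genes, 0.79, was 0.28 to 1.07 without 1 library, 0.10 with the covariate or with protein-coding genes of at least 1 CPM, 0.18 with at least 1 CPM in 4 libraries and 0.07 when that filter was used on the 8 libraries alone. Single genes were compared under up to 29 alternatives, the test against 2-fold not among them. Of 225 called genes that the text draws on, 217 were called under each of these and none changed sign, while genes not called could, such as Canx (-0.40 to 0.05). Of 257 genes, 77 moved by more than 1.5 times under at least 1 alternative.

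The labels do not say whether the numbers of the libraries pair them. Same-numbered eGFP and tdTomato libraries had correlations of their deviations of -0.07, 0.05, 0.48 and 0.26 over 18531 genes. With the same-numbered eGFP/tdTomato libraries the correlations were -0.21 to 0.62 for eGFP and 0.02 to 0.59 for tdTomato, over 0.1 in 3 of 4 each. Libraries numbered 3, the ones with Y-linked reads above 200 CPM in every fraction, correlated best with their own number, and not all others did. With a replicate block, 7135 genes were higher and 5039 lower.

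In simulated counts, where few genes were shifted, most 2-fold changes were missed. Since many more genes differed in the data, that share does not give the sensitivity of the comparison itself. Of genes whose higher fraction averaged under 1 CPM 5.30% were called, against 88.1% above 1000 CPM.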

Other observations

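Of 2377 long intergenic non-coding RNA genes tested 18.1% were called, and of 1591 antisense genes 24.95%, beside 35.2% of all genes. The non-coding classes of the annotation include processed transcripts, and among them some genes known to encode proteins, such as Cct6a and Ifi30. The 166 genes of these classes looked at here were picked for being called, having no overlap and reaching 10 CPM, so that their separation follows from the choice. Of these, 77 were higher in eGFP and 89 in tdTomato, and 41 of them carry a name. The genes given here were named after their values were seen. Rmst, a long non-coding RNA of neural progenitors, stood at 58.7, 97.3, 75.2 and 78.4 CPM in the eGFP libraries and 0, 0.0301, 0.335 and 0.406 CPM in the tdTomato libraries, a change of 8.62 that was 9.24 without tdTomato library 5. Mir99ahg, a host transcript of microRNAs, averaged 218 ± 52.4 against 21.2 ± 4.86 CPM, and the nuclear RNAs Neat1 and Meg3 averaged 290.0 ± 84.5 against 84.3 ± 17.4 CPM and 68.7 ± 9.43 against 26.5 ± 6.10 CPM. Sox2ot, which is transcribed across the Sox2 locus, was higher in tdTomato at 68.2, 95.5, 92.8 and 94.9 CPM in the eGFP libraries and 615, 558, 654 and 445 CPM in the tdTomato libraries, a change of -2.69, while Sox2 itself averaged 72.9 ± 18.4 against 50.2 ± 21.9 CPM. Sox2 and Sox2ot overlap in position but share 0 exonic bases in the annotation used here. Whether unspliced Sox2ot reads were counted for Sox2 was not tested. Dubr averaged 9.52 ± 2.53 against 91.9 ± 18.5 CPM, also higher in tdTomato.

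Members of some further families, also chosen after their values were seen, differed in the test and others did not. Fabp7, the fatty acid binding protein of radial glia and astrocytes, was higher in eGFP, at 2391 ± 632 against 215 ± 45.7 CPM, while Fabp3 did not pass at 1.21 against 2.05 CPM. Enpp2, which makes lysophosphatidic acid, was higher in tdTomato, at 743 ± 123 against 4184 ± 643 CPM, and its relative Enpp5 did not pass at 151 against 152 CPM. Nrg1, a ligand of ErbB receptors, was higher in tdTomato, at 6.00 ± 1.81 against 22.9 ± 9.14 CPM, and Nrg2 (1.66 against 0.634 CPM) and Nrg3 (4.52 against 2.43 CPM) did not pass. The intermediate filament genes Vim and Nes were higher in eGFP, at 363 ± 96.1 against 3.54 ± 0.622 CPM and 29.7 ± 4.23 against 4.95 ± 2.34 CPM.

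For protein-coding genes averaging 1 CPM or more, the median gene span was 30.3 kb for genes higher in eGFP, 27.9 kb for genes higher in tdTomato and 23.7 kb for genes not called. For changes of at least 4-fold the order turned, with 27.8 kb for genes higher in eGFP and 37.3 kb for genes higher in tdTomato.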
